A study of Mus musculus with 20 samples.

Results

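The genes described here are 28 genes of cholesterol synthesis, of its control by the transcription factor SREBP2, and of cholesterol transport and storage in the cell. They were chosen by gene symbol as a pathway list, with earlier results of these data known, among 22298 genes listed for each library, and all 28 were present and tested. The 20 RNA-seq libraries were made from whole liver tissue of male mice of the Lepr db/db line, which is without a working leptin receptor and becomes obese and diabetic. At 5 weeks of age, mice of all groups were injected in the tail vein with an AAV8 vector. The vector carried a non-targeting shRNA in the groups named Vec (labelled control) and Vec+BBR (labelled benzbromarone). It carried 4 shRNAs in tandem against Pparg, the gene of the nuclear receptor PPARγ, in the groups named shRNA (labelled PPAR knockdown) and shRNA+BBR (labelled PPAR knockdown + benzbromarone). Benzbromarone (BBR), a uricosuric drug used against gout, was then given by gavage at 25 mg per kg once daily for 4 weeks, and the other mice received the carboxymethyl cellulose vehicle. Livers were taken after a fast of 6 h, and each group holds 5 libraries. No lean mice are among these libraries, and all mice lack leptin signalling. The comparisons ask how BBR alters the liver of these mice and how far the alteration depends on hepatic PPARγ.

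Liver cells make cholesterol from acetyl-CoA. The mevalonate steps lead to isoprenoid units, the squalene steps join them and close the rings to give lanosterol, and the steps after lanosterol trim and rearrange it to cholesterol. SREBP2, encoded by Srebf2, is made as a membrane protein of the endoplasmic reticulum. When sterol is scarce, the escort protein SCAP carries it to the Golgi, where proteases release the part that enters the nucleus and activates genes of this pathway. When sterol is plentiful, the INSIG proteins hold SCAP back. SREBP2 binds sterol response elements, often near a CCAAT box bound by the factor NF-Y. NPC1 and NPC2 move cholesterol out of lysosomes, and SOAT1 and SOAT2 esterify it for storage or secretion.

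The start of the gene was looked at in the RefSeq promoter table of build GRCm38.p6, in which 22 of the 28 genes were matched. The others are Sqle, Fdft1, Stard4, Fdps, Soat2 and Npc1. In the 250 bases before a start site, on either strand, CCAAT occurred in at least 1 window for 20 of the 22 genes (90.9%), the exceptions being Acat2 and Scap. It occurred for 40.6% of 9789 tested genes in the table and for 37.5% of all 27025 genes in it. The sterol response element written as TCACNCCAC occurred for 1 of the 22 genes, Hmgcs1, and for 1.26% of the tested genes. A match describes letters only, and many sterol response elements differ from the letters searched. The windows of 3 genes are shown because their mRNAs went different ways with BBR: Hmgcs1 was higher, Ebp was lower, and Insig2 had a log2 fold change near 0 in mice with the control vector. They run 5′ to 3′ on the strand of the gene and lie outside annotated exons. Capitals mark CCAAT, its reverse complement ATTGG, and the match to TCACNCCAC. The windows are chr13:119690101-119690350 on the plus strand for Hmgcs1, chrX:8193513-8193762 on the minus strand for Ebp, and chr1:121332590-121332839 on the minus strand for Insig2.
Hmgcs1: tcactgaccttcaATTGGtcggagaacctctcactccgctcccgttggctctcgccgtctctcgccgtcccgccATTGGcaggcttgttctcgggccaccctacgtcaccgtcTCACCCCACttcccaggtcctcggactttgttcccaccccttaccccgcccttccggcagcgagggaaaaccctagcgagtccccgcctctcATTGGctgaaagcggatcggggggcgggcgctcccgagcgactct
Ebp: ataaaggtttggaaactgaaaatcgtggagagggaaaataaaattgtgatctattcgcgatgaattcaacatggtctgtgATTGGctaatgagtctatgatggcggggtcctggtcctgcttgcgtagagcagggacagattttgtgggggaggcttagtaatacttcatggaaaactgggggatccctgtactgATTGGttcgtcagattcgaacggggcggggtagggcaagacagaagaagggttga
Insig2: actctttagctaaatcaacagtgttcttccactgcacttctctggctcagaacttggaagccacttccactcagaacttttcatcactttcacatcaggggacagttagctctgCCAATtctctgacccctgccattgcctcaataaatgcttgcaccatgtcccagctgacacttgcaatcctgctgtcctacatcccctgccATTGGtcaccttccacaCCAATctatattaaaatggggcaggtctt
The Hmgcs1 window holds the sterol response element 137 bases before the start and CCAAT in either direction at 237, 176 and 45 bases. In the Ebp window CCAAT begins 170 and 55 bases before the start, and in the Insig2 window shown 136, 46 and 29 bases before it. Insig2 has 2 other windows in the table, at start sites within the gene, and neither holds CCAAT. The CCAAT letters were therefore found both for the gene that fell and for the gene that rose.

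Library totals ran from 17432904 to 25024099 counts, and the lowest count of any of the 28 genes in a library was 20, for Soat1. Pparg itself was at a mean of 24.8 ± 8.63 CPM (counts scaled to a library of fixed size) in Vec (SD, n = 5), 31.8 ± 4.57 in Vec+BBR, 5.73 ± 1.53 in shRNA and 13.9 ± 6.22 in shRNA+BBR. With knockdown it was lower by a log2 fold change of -2.12 without BBR and -1.20 with BBR (adjusted p = 4.5e-05 and 0.0084, edgeR), and within the knockdown mice it was higher with BBR (1.28, adjusted p = 0.0077). The shRNA+BBR mice therefore carried more Pparg mRNA than the shRNA mice. Hepatocyte genes such as Alb were present at a high level in every library, and the 6 hepatocyte markers summed to between 83394 and 139180 CPM.

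Levels of different genes were compared only per length, as deposited FPKM. In the Vec group the highest means were those of Insig2 (106 ± 46.2 FPKM, SD, n = 5), which keeps SCAP in the endoplasmic reticulum, of the desaturase Sc5d (91.1 ± 34.6 FPKM) and of the sterol isomerase Ebp (86.7 ± 8.47 FPKM). The lowest were those of Soat1 (0.537 ± 0.172 FPKM), Lbr (1.15 ± 0.210 FPKM) and the squalene epoxidase Sqle (2.56 ± 2.09 FPKM). Of the neighbours in this order, the ranges of Lbr and Soat1 alone did not overlap, and the others do not differ beyond the spread between libraries. Over all 20 libraries Sqle spanned 11.4-fold, Idi1 10.9-fold and Hmgcs1 9.45-fold between the lowest and the highest FPKM, against 1.53-fold for Ebp and 1.83-fold for Npc1. Comparisons between groups use TMM-normalized CPM, because FPKM of all tested genes were shifted by a median log2 value of 0.13 between Vec+BBR and Vec and of 0.10 between shRNA and Vec.

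One control library stood apart in the synthesis enzymes. Vec replicate 3 was the highest of its group in 17 of the 19 enzymes, and their geometric mean in it was 51.7 CPM, against 19.1 to 31.0 CPM in the other Vec libraries and 37.4 to 55.1 CPM in Vec+BBR. In shRNA+BBR, replicate 5 was the lowest in 16 of 19 enzymes (geometric mean 25.5 CPM) and replicate 4 the highest in 15 (53.6 CPM). The shRNA group was narrow, from 22.3 to 31.3 CPM. The labels give no reason to leave out any library, so all 20 were kept, and results that rest on these libraries are given with and without them. Vec replicate 3 was singled out by its high values of these same enzymes. Leaving it out therefore enlarges the rise of most of them with BBR, and fits without it are not separate evidence of that rise. Likewise, shRNA+BBR replicate 5 was singled out by its low values of these enzymes. Fits without it enlarge the rise of most of them with BBR in knockdown mice, and are not separate evidence of that rise.

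**Figure D1:**
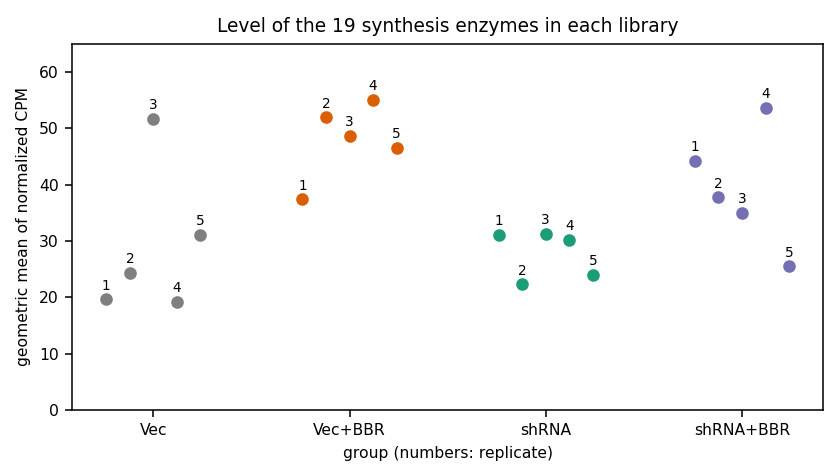
Geometric mean of the normalized CPM of the 19 synthesis enzymes (vertical axis) in each of the 20 libraries by group; numbers are replicate numbers. Vec replicate 3 (51.7 CPM) lies within the range of Vec+BBR (37.4 to 55.1 CPM), and shRNA+BBR replicate 5 (25.5 CPM) lies within that of shRNA (22.3 to 31.3 CPM).

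In mice with the control vector, 5 of the 19 synthesis enzyme mRNAs were higher with BBR and 1 was lower. Of the 28 genes, 7 were higher and 2 lower in Vec+BBR than in Vec (edgeR quasi-likelihood test, Benjamini-Hochberg adjusted p under 0.05 over 12342 genes), where 7.58% of all tested genes were higher and 7.88% lower. At an unadjusted p under 0.05, 18 of 28 were higher, against 14.9% of all genes. The fitted change was positive for 24 of 28 genes, with a median log2 fold change of 0.45, against -0.01 over all tested genes. Without Vec replicate 3, 21 of the 28 passed the threshold, 18 higher and 3 lower, the same 9 among them, and the median was 0.68. Leaving out Vec replicate 1 or Vec replicate 4 instead gave 6 calls. The share of all tested genes called in these fits is not given here, so the count of 21 cannot be set against it. With all libraries DESeq2 called 10 (Lss added) and limma 12 (Acat2, Fdps and Mvd added). The share of all tested genes is not given for these counts either.

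All 7 genes of the mevalonate steps had a positive change, and 3 of them rose. The largest was Idi1, which isomerizes isopentenyl diphosphate. Idi1 was at 8.42, 10.5, 39.3, 9.79 and 24.2 CPM in the Vec libraries and at 39.2, 71.0, 56.4, 79.7 and 58.2 CPM in the Vec+BBR libraries. Vec replicate 3 reached the lowest Vec+BBR library, and the other 4 Vec libraries lay below all of them. The log2 fold change was 1.72 (SE 0.38, adjusted p = 0.0052, edgeR). Hmgcs1, the cytosolic HMG-CoA synthase (chr13:119690379-119708260, GRCm38), was at 17.4, 23.8, 80.8, 20.5 and 41.0 CPM in Vec and at 70.8, 113, 101, 146 and 96.2 CPM in Vec+BBR. Again the single overlap came from Vec replicate 3. Its log2 fold change was 1.52 (SE 0.34, adjusted p = 0.0049, edgeR). Mvk, the mevalonate kinase, went from 9.03 ± 2.47 to 13.6 ± 2.78 CPM (SD, n = 5 each), a log2 fold change of 0.59 (SE 0.19, adjusted p = 0.038, edgeR).

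The other mevalonate genes, Acat2, Pmvk, Mvd and Fdps, had changes of 0.47 to 1.03 that did not pass (adjusted p = 0.078 to 0.12, edgeR), though limma called Acat2, Mvd and Fdps. Without Vec replicate 3 all 4 passed, and Fdps, which makes farnesyl diphosphate, then had a log2 fold change of 1.62 (SE 0.35, adjusted p = 0.0029, edgeR). Fdps was at 163 CPM in that library and at 22.8 to 82.8 CPM in the other Vec libraries. Acat2, the cytosolic thiolase, has a near copy, Acat3, with 4791 to 9746 counts per library, so reads of Acat2 may have been divided between the pair.

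Of the squalene steps, Sqle, which puts the oxygen on squalene, was at 4.61, 5.08, 18.3, 3.19 and 6.27 CPM in Vec and at 13.8, 29.7, 23.9, 34.0 and 22.7 CPM in Vec+BBR. Only Vec replicate 3 overlapped the treated libraries. The log2 fold change was 1.72 (SE 0.39, adjusted p = 0.0052, edgeR), and without that library it was 2.36 (SE 0.32, adjusted p = 5.9e-05). Fdft1, the squalene synthase, and Lss, which closes the rings, had positive changes of 0.45 and 0.57 that did not pass in edgeR with all libraries and did without Vec replicate 3, and DESeq2 called Lss with all libraries.

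Of the 9 genes after lanosterol, 1 rose and 1 fell. Cyp51, the lanosterol demethylase, was at 14.3, 14.98, 56.8, 13.1 and 21.1 CPM in Vec and at 32.5, 54.1, 47.8, 54.4 and 54.8 CPM in Vec+BBR. Vec replicate 3 was the highest of these 10 libraries. The log2 fold change was 1.01 (SE 0.32, adjusted p = 0.037, edgeR), and without that library it was 1.60 (SE 0.22, adjusted p = 6.3e-05). Msmo1, Nsdhl, Hsd17b7, Sc5d and Dhcr7, which remove methyl groups, add a double bond or reduce one, had changes of 0.37 to 0.67 and passed only without Vec replicate 3. The sterol reductases Tm7sf2 and Lbr passed in neither fit, with changes of 0.24 and 0.02.

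Ebp, the sterol isomerase (chrX:8185329-8193512, GRCm38), moved the other way from the rest of the enzymes. It was at 161, 184, 141, 151 and 131 CPM in Vec and at 114, 96.2, 104, 104 and 114 CPM in Vec+BBR. All Vec libraries lay above all Vec+BBR libraries, Vec replicate 3 included. The log2 fold change was -0.53 (SE 0.10, adjusted p = 0.0012, edgeR), the smallest p of the 28 genes in this comparison.

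**Figure D2:**
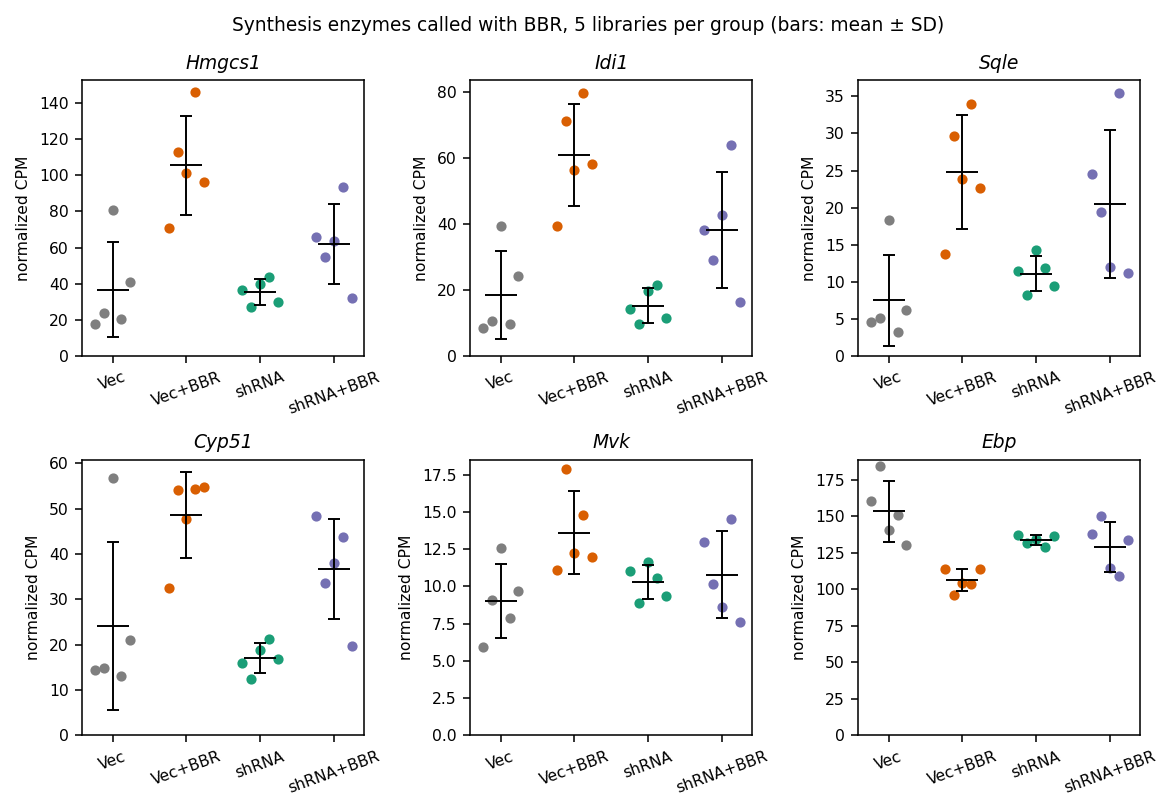
Normalized CPM (vertical axes, from 0) of the 6 synthesis enzymes that passed the threshold with BBR in mice with the control vector; points are libraries, bars are mean ± SD of 5. Hmgcs1, Idi1, Sqle and Cyp51 each have 1 high Vec point, replicate 3, and Ebp is lower in Vec+BBR (106 ± 7.53 CPM) than in Vec (153 ± 20.7 CPM).

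The genes that control the pathway did not pass the test with BBR in these mice. Srebf2 was at 29.1, 39.3, 40.8, 37.8 and 40.7 CPM in Vec and at 29.5, 40.7, 38.1, 45.7 and 33.7 CPM in Vec+BBR. The ranges lay on each other, and the log2 fold change was 0.00 (95% interval -0.27 to 0.27). Insig1, itself a target of SREBP2, had a change of 0.17 (95% interval -0.19 to 0.54) and Insig2 of -0.01 (95% interval -0.53 to 0.51). Srebf2 and Insig1 are outside the rule for named genes and were singled out after their values were seen. Scap had a change of -0.31 (adjusted p = 0.091, edgeR) and passed without Vec replicate 3. These are mRNA levels, and the cleaved SREBP2 protein was not measured in these files.

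Of the 5 genes of transport and esterification, 2 rose and 1 fell. Npc2, the soluble lysosomal cholesterol carrier, was at 48.7, 50.5, 61.8, 54.2 and 61.0 CPM in Vec and at 60.4, 73.0, 73.2, 70.3 and 73.1 CPM in Vec+BBR, a log2 fold change of 0.34 (SE 0.08, adjusted p = 0.0074, edgeR). Npc1, its membrane partner, was at 138, 158, 104, 142 and 119 CPM in Vec and at 98.1, 96.2, 101, 104 and 105 CPM in Vec+BBR, a log2 fold change of -0.39 (SE 0.09, adjusted p = 0.0067, edgeR). The pair went in opposite directions, with 1 Vec library within the Vec+BBR range for Npc1 and 2 for Npc2. Soat2, the esterifying enzyme of hepatocytes and enterocytes, went from 17.2 ± 4.55 to 25.1 ± 2.24 CPM (SD, n = 5 each), a log2 fold change of 0.54 (SE 0.15, adjusted p = 0.021, edgeR). Soat1 and Stard4, a sterol carrier, each had a change of 0.29 that did not pass.

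The calls differ in how much they rest on single libraries. Hmgcs1, Idi1, Sqle, Ebp, Npc1 and Npc2 passed with each of the 10 libraries left out in turn and under the other alternatives tried (largest adjusted p = 0.042). Cyp51 lost its call without any of Vec replicates 1, 2, 4 and 5 or Vec+BBR replicates 2, 3, 4 and 5, with changes of 0.86 to 1.02. Mvk lost its call without Vec replicates 1, 2 or 4 or Vec+BBR replicates 2 or 4, and Soat2 without Vec replicates 1 or 4 or Vec+BBR replicate 3. Fitted to Vec and Vec+BBR alone, Mvk and Cyp51 did not pass (adjusted p = 0.070 and 0.096).

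Some markers of cell types moved with BBR too, where 7.58% of all tested genes were higher and 7.88% lower. In Vec+BBR against Vec, 3 of 10 macrophage markers were higher (Gpnmb, Trem2 and Cd68) and 2 lower (Marco and Timd4), and their sum ran from 139 to 331 CPM in Vec and from 206 to 319 CPM in Vec+BBR. Of 6 stellate cell markers 2 were higher (Col1a1 and Col3a1), with sums of 147 to 274 and 292 to 326 CPM. Of 5 sinusoidal endothelium markers 2 were higher (Lyve1 and Pecam1), with sums of 62.6 to 83.0 and 79.6 to 107 CPM. Of 5 cholangiocyte markers 1 was higher (Spp1), with sums of 24.03 to 45.3 and 50.3 to 96.6 CPM. Of 6 hepatocyte markers 2 were lower (Cps1 and Tat), with sums of 111110 to 139180 and 83394 to 118100 CPM. T and B cell markers summed to at most 2.76 CPM in these groups, with 1 of 2 tested lower (Cd3g), and adipocyte markers to at most 1.47 CPM with none tested and 2 of 4 at 0 in all Vec libraries. No marker of the other lists was at 0 throughout a group. The part of these markers in the results on the 28 genes was not tested, and in bulk liver fewer cells of a type and less RNA per cell cannot be told apart.

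In mice with PPARγ knockdown, Idi1, Cyp51 and Npc2 rose with BBR. In shRNA+BBR against shRNA, 3 of the 28 genes were higher and 0 lower (edgeR), where 8.37% of all tested genes were higher and 7.28% lower, so the share of calls was close to the background. Of the genes without a call as lower, 3 had an unadjusted p under 0.05 with a negative change, and DESeq2 and limma also called 0 lower. The share of all tested genes with such values was not counted. At an unadjusted p under 0.05, 11 of 28 were higher, against 17.2% of all genes. The change was positive for 21 of 28 genes, and the median was 0.30, against 0.01 over all tested genes.

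Idi1 was at 14.1, 9.54, 19.6, 21.6 and 11.5 CPM in shRNA and at 38.0, 29.2, 42.8, 63.8 and 16.5 CPM in shRNA+BBR. The log2 fold change was 1.31 (SE 0.38, adjusted p = 0.028, edgeR). Cyp51 was at 15.99, 12.4, 18.8, 21.3 and 16.9 CPM in shRNA and at 48.3, 33.6, 38.1, 43.8 and 19.7 CPM in shRNA+BBR, with a log2 fold change of 1.10 (SE 0.32, adjusted p = 0.028, edgeR). For both genes 4 of 5 treated libraries lay above every shRNA library, and replicate 5 lay within the shRNA range. Npc2 was at 47.4, 48.4, 48.5, 49.0 and 50.8 CPM in shRNA and at 64.6, 58.4, 65.1, 61.9 and 52.9 CPM in shRNA+BBR, without overlap, and its log2 fold change was 0.31 (SE 0.08, adjusted p = 0.017, edgeR).

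Hmgcs1 and Sqle, which rose in mice with the control vector, did not pass here. Hmgcs1 was at 36.5, 26.9, 39.7, 43.9 and 29.9 CPM in shRNA and at 66.0, 54.6, 63.6, 93.3 and 32.3 CPM in shRNA+BBR, where replicate 5 alone lay within the shRNA range. Its change was 0.81 (adjusted p = 0.096, edgeR), and that of Sqle was 0.88 (adjusted p = 0.11). Without Vec replicate 3, which enters here through the shared estimate of the spread alone, both passed at nearly the same size, 0.81 and 0.88 (adjusted p = 0.031 and 0.033, edgeR). Ebp had a change of -0.05 (95% interval -0.25 to 0.15). Srebf2, Scap, Insig1 and Insig2 all had changes below 0, from -0.32 to -0.05, and none passed with all libraries. Without shRNA+BBR replicate 1, Srebf2 and Scap were called lower.

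The count of 3 turned on single libraries in both directions. Without Vec replicate 3 it was 8, all higher, with Acat2, Fdps, Hmgcs1, Nsdhl and Sqle added. Without shRNA+BBR replicate 1 it was 4, with Idi1 and Npc2 higher, Scap and Srebf2 lower, and Cyp51 lost. Without shRNA+BBR replicate 5 it was 9, all higher, with Acat2, Fdft1, Fdps, Hmgcs1, Nsdhl and Soat1 added. Without shRNA replicates 1, 2 or 5, or without shRNA+BBR replicate 4, it was 1, Npc2, and without shRNA+BBR replicate 3 it was 0. Fitted to shRNA and shRNA+BBR alone it was 9, and with DESeq2 it was 5. Without both Vec replicate 3 and shRNA+BBR replicate 5 it was 14, 13 higher and 1 lower (Scap). That setting was chosen after the data were seen. Vec libraries enter this comparison through the shared estimate of the spread alone, while leaving out shRNA+BBR replicate 5 also moves the fold changes. The latter library was singled out by low values of these enzymes, so fits without it are not separate evidence of the rise. The share of all tested genes called in these fits is not given here, so the counts cannot be set against it.

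Some markers moved with BBR in these mice as well, where 8.37% of all tested genes were higher and 7.28% lower. Of the macrophage markers 3 were higher (Gpnmb, Trem2 and Cd68), with sums of 181 to 239 CPM in shRNA and 218 to 311 CPM in shRNA+BBR. Of the stellate cell markers 3 were higher (Col1a1, Col3a1 and Lrat), with sums of 183 to 243 and 242 to 367 CPM. Of the endothelial markers 1 was higher (Lyve1) and 2 lower (Stab2 and Kdr), with sums of 94.6 to 121 and 80.3 to 115 CPM. Spp1 of the cholangiocyte list was higher and Cps1 of the hepatocyte list lower, with sums of 25.9 to 34.4 and 31.0 to 87.7 CPM for the first list and 105040 to 123160 and 98699 to 116690 CPM for the second. The part of these markers was not tested.

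**Figure D3:**
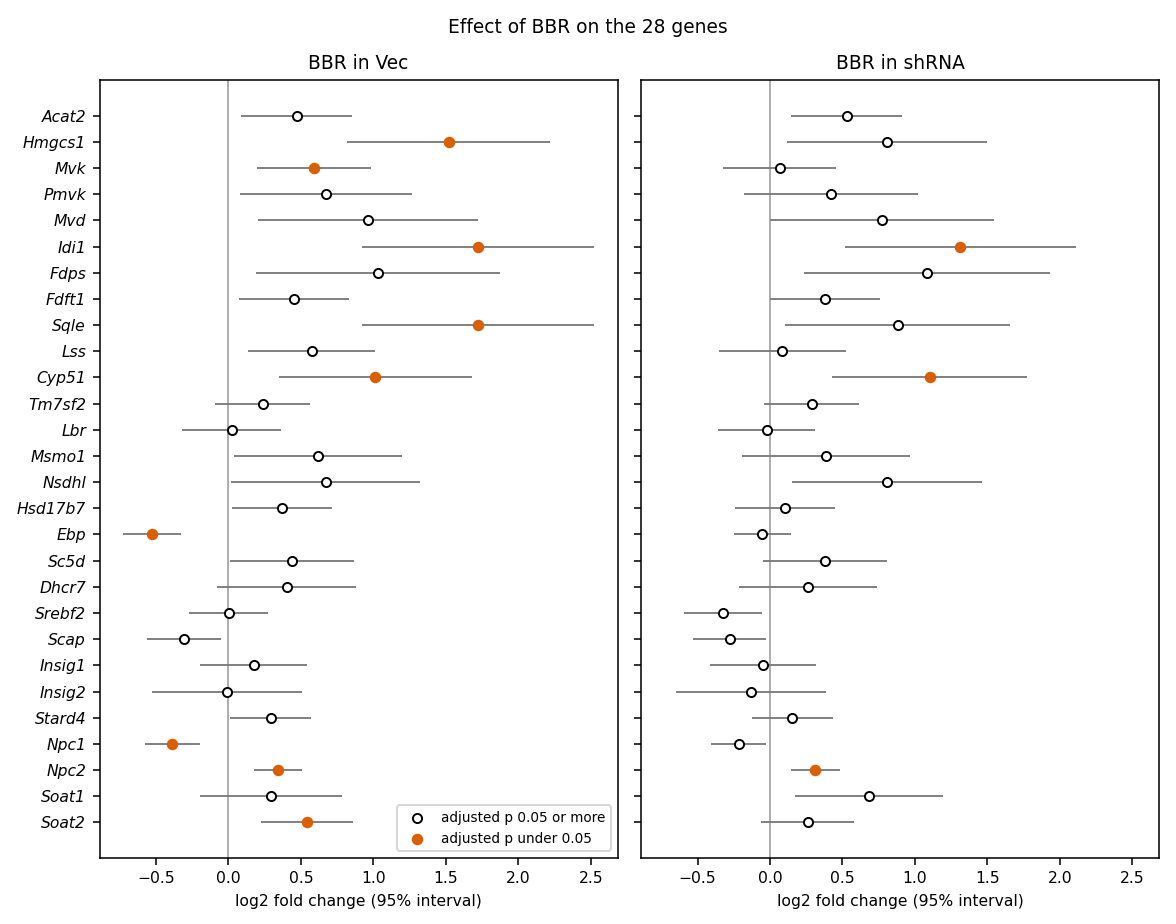
Log2 fold change with BBR (horizontal axes, with 95% intervals) of the 28 genes in mice with the control vector (left) and with knockdown (right), ordered by role; filled points have an adjusted p under 0.05. Idi1, Cyp51 and Npc2 are filled on both sides, and Ebp is at -0.53 on the left and at -0.05 on the right.

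Whether the BBR effect differed between control vector and knockdown was tested as an interaction. Of the 28 genes, 0 passed in either direction (edgeR), where 0.0729% of all tested genes were higher and 0.0729% lower. At an unadjusted p under 0.05, 1 was higher, Ebp, against 9.79% of all genes, and 0 were lower. DESeq2 called 1 gene, Ebp, and limma 0, with 1 and 4 genes at an unadjusted p under 0.05. The largest differences were those of Sqle, -0.84 (95% interval -1.95 to 0.27, adjusted p = 0.40, edgeR), and Hmgcs1, -0.71 (95% interval -1.69 to 0.26, adjusted p = 0.41). Without Vec replicate 3 they were -1.48 and -1.21 and did not pass. The difference of Ebp, singled out after its values were seen, was 0.47 (SE 0.13, adjusted p = 0.10, edgeR; 0.035 to 0.18 over the alternatives). The intervals of Sqle and Hmgcs1 hold both no difference and a change lower by more than 1 on the log2 scale, so these libraries do not resolve whether knockdown altered the response of the enzymes. Pparg itself was lower with knockdown by -2.12 without BBR and by -1.20 with BBR. That difference did not pass as an interaction (adjusted p = 0.21, edgeR), and its part in the results was not tested.

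With knockdown and no BBR, 1 of the 28 genes, Npc1, passed the test. In shRNA against Vec, 0 of 28 genes were higher and 1 lower (edgeR), where 5.28% of all tested genes were higher and 7.91% lower. At an unadjusted p under 0.05, 1 gene was higher, Insig2, and DESeq2 called 0 higher while limma called Insig2. The share of all tested genes at that unadjusted p was not counted for this comparison, so the count says nothing about the list. Npc1 was at 138, 158, 104, 142 and 119 CPM in Vec and at 99.0, 93.1, 97.0, 89.8 and 105 CPM in shRNA. A single pair of libraries overlapped, and the log2 fold change was -0.45 (SE 0.09, adjusted p = 0.0023, edgeR). It passed under all alternatives tried, and the Vec libraries are the same as in the comparison with Vec+BBR, where Npc1 was also lower. Insig2 was at 107, 91.7, 335, 176 and 214 CPM in Vec and at 260, 252, 338, 256 and 316 CPM in shRNA, with a change of 0.62 (SE 0.25, adjusted p = 0.10, edgeR). Vec replicate 3 alone lay in the shRNA range, and without it the change was 0.95 (SE 0.21, adjusted p = 0.0062, edgeR). Since that library is the highest of Vec for Insig2, leaving it out enlarges the change and is not separate evidence of it. Soat1, the widespread esterifying enzyme, was at 3.06, 1.29, 2.60, 2.69 and 3.25 CPM in Vec and at 1.10, 1.84, 1.85, 2.45 and 1.46 CPM in shRNA, with a change of -0.58 (SE 0.25, adjusted p = 0.13, edgeR).

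The direction of the whole list was not stable in this comparison. The change was negative for 20 of 28 genes with a median of -0.17, against -0.01 over all tested genes, and without Vec replicate 3 the median was 0.14. Without that library 3 genes passed, Insig2 and Sqle higher and Npc1 lower. Without Vec replicate 2, Soat1 passed beside Npc1.

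Knockdown in mice given BBR gave 0 calls in either direction (edgeR), where 3.31% of all tested genes were higher and 4.82% lower. At an unadjusted p under 0.05, 1 was higher and 5 lower, against 11.4% and 13.3% of all genes. DESeq2 called Ebp higher and Npc1 lower, limma called 0, and edgeR without Vec replicate 3 called Npc1 lower. The change was negative for 24 of 28 genes, with a median of -0.28, against -0.0041 over all tested genes. The largest were those of Hmgcs1, -0.77 (SE 0.33, adjusted p = 0.15, edgeR), and Idi1, -0.68 (SE 0.37, adjusted p = 0.27). Ebp was at 114, 96.2, 104, 104 and 114 CPM in Vec+BBR and at 138, 150.3, 115, 109 and 134 CPM in shRNA+BBR, with a change of 0.28 (SE 0.10, adjusted p = 0.072, edgeR), which passed without shRNA+BBR replicate 4. Npc1 ran from 96.2 to 105 CPM in Vec+BBR and from 77.5 to 91.2 CPM in shRNA+BBR. Its change was -0.28 (SE 0.09, adjusted p = 0.060, edgeR). Insig2 had a change of 0.50 here (adjusted p = 0.22, edgeR). Neither passed with all libraries in edgeR. The groups compared here share no library with those compared without BBR, but both comparisons use the same estimate of the spread.

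**Figure D4:**
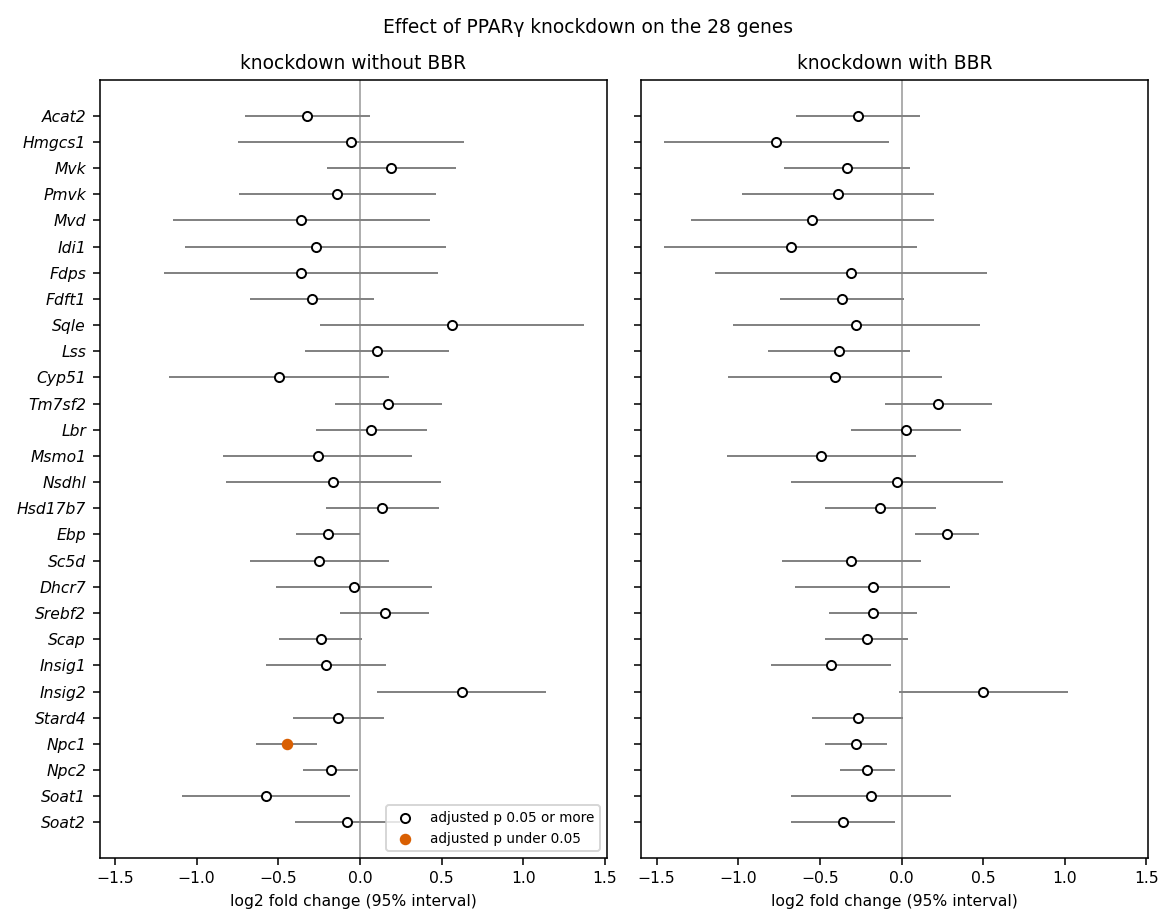
Log2 fold change with PPARγ knockdown (horizontal axes, with 95% intervals) of the 28 genes in mice without BBR (left) and with BBR (right), ordered by role; the filled point has an adjusted p under 0.05. Npc1 on the left (-0.45) is the single filled point, and most open points lie below 0 on the right.

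Some clock genes moved with the knockdown, where 5.28% of all tested genes were higher and 7.91% lower without BBR, and 3.31% and 4.82% with BBR. Of 9 genes that peak by day, 2 were lower in shRNA than in Vec (Dbp and Nr1d1, by -1.34 and -1.07) and the same 2 in shRNA+BBR than in Vec+BBR. Of 3 tested genes of the night list, 2 were higher in both (Arntl by 1.10 and 1.57, Cry1 by 0.52 and 1.09). The summed day genes ran from 266 to 446 CPM in Vec and from 308 to 353 CPM in shRNA, and the night genes from 24.5 to 36.8 and from 34.5 to 50.2 CPM. In Vec+BBR and shRNA+BBR the day genes ran from 312 to 357 and from 230.2 to 302 CPM, and the night genes from 23.3 to 29.8 and from 38.1 to 53.7 CPM. With BBR in mice with the control vector 1 gene of each list was lower (Per3 and Cry1), and with BBR in knockdown mice 3 day genes were lower (Per1, Per3 and Tef) and 1 night gene higher (Clock). Cholesterol synthesis follows the time of day and of feeding in rodents, the hour of collection for each mouse is not given in the sources used here, and the part of these genes in the results was not tested. Without BBR, knockdown also went with 2 lower macrophage markers (Cd68 and Gpnmb), 1 lower stellate marker (Col1a1) and 3 higher endothelial markers (Stab2, Clec4g and Kdr), and with BBR no marker passed.

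**Figure D5:**
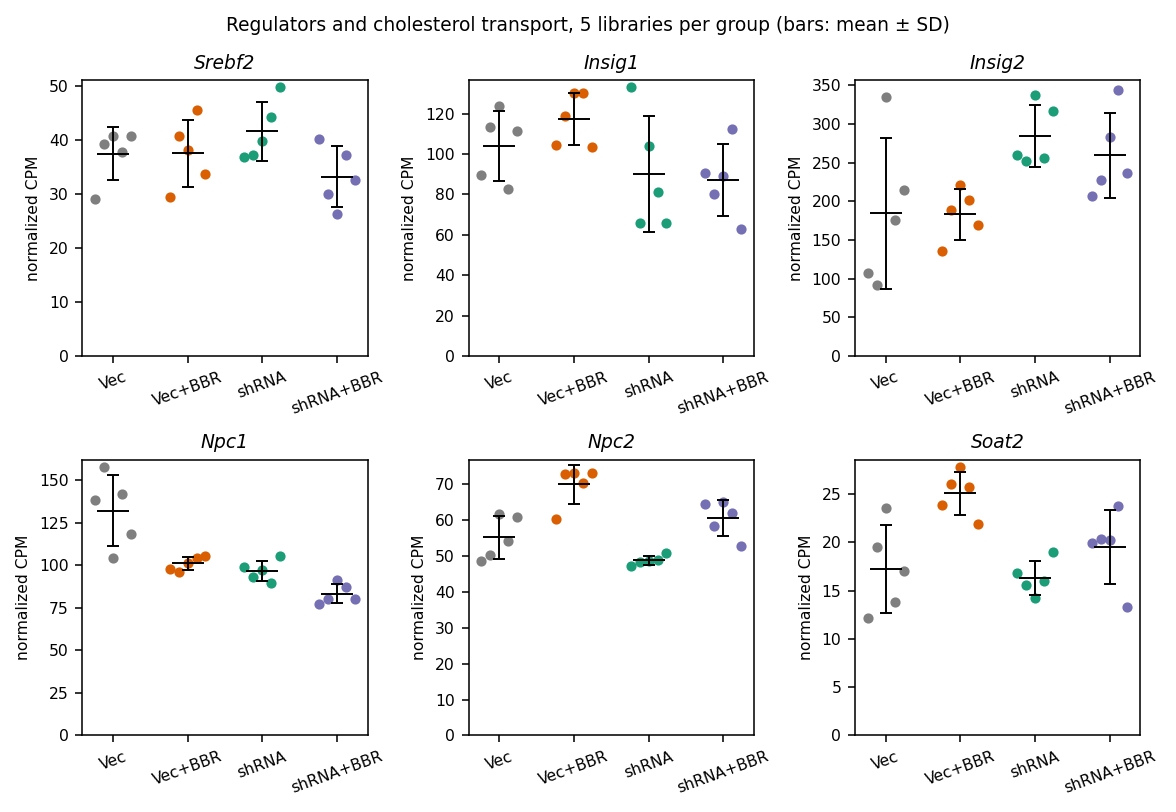
Normalized CPM (vertical axes, from 0) of Srebf2, Insig1, Insig2, Npc1, Npc2 and Soat2; points are libraries, bars are mean ± SD of 5. Srebf2 has a mean of 37.5 CPM in both Vec and Vec+BBR, Npc1 is highest in Vec (132 ± 20.9 CPM), and Npc2 is higher in each BBR group than in its control.

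Of 7 other SREBP targets, 0 passed with BBR in mice with the control vector (edgeR; 1 at an unadjusted p under 0.05), and 1 was higher with BBR in knockdown mice, the retinol dehydrogenase Rdh11 (0.62, adjusted p = 0.047). All 7 had a positive change in both, with medians of 0.16 and 0.44. Of 12 genes of the isoprenoid branches, 1 was higher with BBR in each background, Nus1 (0.38) with the control vector and Pggt1b (0.86) with knockdown. Of all tested genes 7.58% and 8.37% were higher in these comparisons, so the calls were near the background. Dhdds, which with Nus1 makes dolichol, was lower with knockdown without and with BBR (-0.31 and -0.32), as was Fnta without BBR (-0.25). Of all tested genes 7.91% and 4.82% were lower there.

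Of 14 genes of SREBP processing and sterol-dependent degradation in the endoplasmic reticulum, 2 were higher with BBR in both backgrounds. The shares of all tested genes were 7.58% with the control vector and 8.37% with knockdown. Rnf145, a sterol-responsive ubiquitin ligase, had log2 fold changes of 0.88 and 0.53 (adjusted p = 0.00052 and 0.020, edgeR) and was lower with knockdown in mice given BBR (-0.68). Erlin1, which restrains SREBP activation, had changes of 0.42 and 0.58 (adjusted p = 0.011 and 0.0045) and was lower with knockdown without and with BBR (-0.91 and -0.76). Mbtps2, a protease that releases SREBP, was higher with knockdown (0.70 and 0.47), Mbtps1, the other protease, was lower without BBR (-0.28), and Marchf6 was lower with BBR in knockdown mice (-0.39).

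Of 12 tested genes of uptake and transport, 1 was higher and 3 lower with BBR in mice with the control vector, and 1 was higher and 4 lower in knockdown mice. Of all tested genes 7.58% were higher and 7.88% lower in the first comparison, and 8.37% and 7.28% in the second. The counts of higher genes were thus near the background. Scarb1, the receptor for high-density lipoprotein, was lower in both (-0.56 and -0.69), as was Stard5 (-0.31 and -0.28). In the first comparison Lcat (-0.39) was lower and Nceh1 (0.50), which hydrolyses cholesterol esters, was higher. In the second Lrp1 (-0.74) and Gramd1c (-0.29) were lower and Scp2 (0.35) was higher. Knockdown without BBR went with higher Gramd1c (0.66) and Osbp (0.34) and lower Lcat (-0.38) and Scp2 (-0.36), and with BBR with higher Gramd1c (0.53) and lower Stard3 (-0.39).

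LXR is the receptor that senses oxysterols and promotes cholesterol export. The LXR list held 10 genes, those of the receptor itself and of its targets. In mice with the control vector, 0 of the 10 were higher with BBR (edgeR, 1 at an unadjusted p under 0.05) and 3 lower. In knockdown mice 1 was higher and 4 lower. The shares of all tested genes were 7.58% higher and 7.88% lower in the first comparison, and 8.37% and 7.28% in the second. Those lower in both were Abcg5 (-0.48 and -0.61), Srebf1 (-0.57 and -0.75) and Nr1h2 (-0.25 and -0.25). Abcg5 forms with Abcg8 the transporter that puts sterol into bile, and Srebf1 is the gene of the SREBP of fatty acid synthesis. Nr1h2 encodes LXRβ, a form of the receptor and not a target. Abcg8 was lower with BBR in knockdown mice (-0.56) and with knockdown without and with BBR (-0.56 and -0.80). Lpcat3 was lower with knockdown (-0.95 and -0.48) and higher with BBR in knockdown mice (0.41).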

How the data were processed

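Liver mRNA of male db/db mice, selected with Oligo(dT) beads, was sequenced in 20 libraries, 5 in each of 4 groups. Groups and replicate numbers come from the sample labels. The labels do not say that each library is a separate mouse, so p-values measure the spread between libraries. The authors deposited expected counts per gene (91.9% to 93.3% whole, not normalized) and FPKM values, scaled to length and library size without TMM. The processing notes name build mm10, and the aligner and counting program are not given in the sources used here. Counts were rounded, filtered with filterByExpr (minimum count 10, minimum total 15) and scaled by TMM (factors 0.873 to 1.14). The test was edgeR 4.0.16 (R 4.3.3), by quasi-likelihood with a mean per group, and Benjamini-Hochberg adjustment over 12342 genes in each of 5 comparisons, with a threshold of 0.05. SE is the log2 fold change divided by the root of the F statistic. FPKM were used only for levels between genes. A count of 3 was the floor (0.121 to 0.193 CPM). Total counts per library were 17432904 to 25024099. Scripts were tested on simulated data.

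The members and gene lists were chosen with earlier results of these data known. A gene of the uptake list is not reported here. A member's fold change with SE and adjusted p is given where it passed, and otherwise for the 2 with the largest change when fewer than 2 passed, and others so named were chosen after their values were seen. Alternatives were DESeq2 size factors, upper quartile factors, no filter, at least 10 counts in every library, DESeq2 1.42.0, limma 3.58.1 with voom, only the groups compared, a replicate block, and each library left out. Positions are those of GENCODE M21 (GRCm38), and promoter windows are RefSeq GRCm38.p6.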

Additional observations from a re-analysis of the deposited data

Results flagged for a closer look

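Among 112 sets of 5 libraries (28 genes in 4 groups), 9 had a library far from the others by Dixon's test at its 95% critical value of 0.71, where chance alone gives about 5.6 (1 in 20). In Vec, replicate 3 was far above the others for Sqle (18.3 CPM), Lss (29.3 CPM), Cyp51 (56.8 CPM) and Dhcr7 (87.4 CPM), all synthesis enzymes, and replicate 1 was far below for Srebf2 (29.1 CPM). In Vec+BBR, replicate 1 was far below the others for Acat2 (83.7 CPM), Fdps (80.2 CPM), Dhcr7 (46.9 CPM) and Npc2 (60.4 CPM). The 9 values come from 3 libraries. No set in shRNA or shRNA+BBR was so marked, although shRNA+BBR replicate 5 was the lowest of its group in 16 of the 19 synthesis enzymes.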

How the results depend on the processing

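Of 661 recomputed values, 598 stayed on their side of the threshold or, for counts and medians, within the limits set for them. No fold change of a named gene changed sign, but 2 medians did: that for knockdown without BBR when Vec replicate 3 was left out, and that for the interaction when Vec replicate 1 was. The number of genes called with BBR in Vec was 6 to 21 with a library left out, and 21 without both Vec replicate 3 and shRNA+BBR replicate 5, DESeq2 gave 10 and limma voom 12. Settings without both libraries, or without 1 of them where it is not compared, were chosen after seeing the data. Each library compared was left out by plan. However, Vec replicate 3 and shRNA+BBR replicate 5 were singled out for the text after their values were seen. Shares of all tested genes are not given for the alternatives. With BBR in shRNA it was 0 to 9 with a library left out (8 without Vec replicate 3), 14 without both libraries, 5 with DESeq2 and 9 with only the groups compared. With knockdown without BBR it was 1 to 3, 3 without both libraries, 2 with limma voom and 2 with the replicate block. With knockdown with BBR it was 0 to 1 (1 without Vec replicate 3), 1 with upper quartile factors, 2 with DESeq2 and 1 with only the groups compared, and for the interaction 1 with DESeq2. Beyond fewer samples or groups, the cause was not tested. Medians with a library left out ran from 0.34 to 0.68, 0.23 to 0.37, -0.24 to 0.14, -0.39 to -0.22 and -0.38 to 0.01, in the order BBR in Vec, BBR in shRNA, knockdown without and with BBR, and interaction. The median ratio of group means of Vec+BBR to Vec was 1.52 in FPKM and 1.36 in normalized CPM. The interaction has no fit with only the groups compared, since it uses all 4.

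Same-numbered libraries correlated over 0.1, after group means were removed, in 1 of 5 numbers for BBR in Vec, 3 of 5 for BBR in shRNA and 0 of 5 for both knockdown comparisons, so the numbers were not taken to pair mice. With the replicate block the calls were 8, 3, 2, 0 and 0 in the same order. Mvk was lost with BBR in Vec (adjusted p = 0.055) and Insig2 gained with knockdown without BBR (0.021).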
